A study of Homo sapiens with 8 samples.

Results

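The 2-block peaks of the 4 deposited peak lists were examined: the rows in which the authors listed a peak as a pair of exon blocks on 1 strand with a gap between them. They were chosen by the deposited block number, and 2091 of the 42083 listed peaks were of this kind, in 1033 of the 6520 genes that had any peak (15.8%). The replicates held 534 of 11562 and 549 of 11038 peaks with the control guide, and 507 of 10095 and 501 of 9388 with the guide against METTL1. Single-block peaks numbered 38187, and peaks of 3 or more blocks numbered 1805.

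The series asked whether METTL1 affects the binding of QKI7 to its transcripts. All 8 samples were HepG2 cells, an established human liver cancer line, that carried Cas9, were infected with a pmiRNA1-3 x Flag-QKI7 lentivirus, and were kept as GFP-positive cells. They were treated either with the control guide (sgNS) or with a guide that depletes METTL1 (sgMETTL1), and input RNA and Flag immunoprecipitated (IP) RNA were sequenced after UV cross-linking, in 2 replicates each. Each peak list compares 1 IP with 1 input sample, so each guide has 2 lists, and the fold of a peak is the authors' own IP over input ratio. The tagged QKI7 was overexpressed on top of the cells' own QKI, and the labels give neither clones nor separate cultures, so spread between replicates may be technical. The listed values carry no read counts, so the depth behind a peak is not given. The lists have no peak for METTL1 or for WDR4, its partner, in any library and so give no check of the depletion. Of 8 hepatocyte markers 4 had a peak, none of them in 2 blocks, against 0 of 5 fibroblast and 2 of 4 blood cell markers (LYZ and HBB). Peaks show enrichment over input and not expression.

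QKI7 is an isoform of Quaking, a STAR-family protein that binds single-stranded RNA through a KH domain and is known for roles in splicing, RNA stability and translation. METTL1 with WDR4 places 7-methylguanosine on transfer RNAs and other RNAs. A peak listed over a pair of blocks covers the end of one exon and the start of the next one in the mature transcript, and the gap between the blocks is the part left out, as an intron would be. The gap is called a junction below, and junctions were taken as the same in different lists when chromosome, strand and both ends of the gap were identical.

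Reference sequence was at hand for transcript starts alone, so the sequences shown are those of the peaks that reach one. In 19 genes a 2-block peak covered part of the first 50 bases of the RefSeq transcript start on GRCh38.p14, and in 5 genes it held the first 30 bases in full. HRH2, the histamine H2 receptor, was the 1 gene of these 5 with such a peak in all 4 lists, and ASMT, the last enzyme of melatonin synthesis, had one in 2 lists. In ASMT the listed start was the first base of the 3′ block, after a gap of 19600 bases. Its peak thus also held a block upstream of that start, so the bases shown do not begin the transcript that the peak spans. The first 30 bases from each of the 5 listed starts are printed below, 5′ to 3′ on the strand of the gene. No letter is in capitals because none of the 5 held the searched motif.
HRH2: gcatccctgcccggagcgcagccggcgcgg
ASMT: caggctctgtgctccttgaagcaagcgctc
MIB2: gcccttcgggtcccacagtttccagccgcc
YBX3: agtaagatcgagcgaggagcccaagagaga
KANK2: ggcgcgcgcgaagacgctcgggcggcggga
None of the 5 held ACTAAC or ACTAAT, the core letters of the Quaking response element, on the sense strand. The share of all 35116 listed starts that hold one of them in the same window was 0.49%. The shorter letters TAAC or TAAT, which the longer motif contains, were also in none of the 5, against 6.8% of all starts. The window of HRH2 lies at chr5:175658071-175658100, and its peak began 4 bases before it, with blocks of 89 and 90 bases around a gap of 24553 bases.

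In shape, a 2-block peak was mostly a long block with a short one beside it. The shorter block had a median of 42 bases over all 2091 peaks (quartiles 21 and 73), and 29.9% had a shorter block under 25 bases. Both blocks reached 100 bases in 14.4%. In 19 peaks the shorter block was a single base. The block on the 3′ side was the longer one in 74.9 and 72.1% of peaks with sgNS and in 68.0 and 68.5% with sgMETTL1. The median gap was 1661 and 1645 bases with sgNS and 1460 bases in each sgMETTL1 list, and 9.5% of gaps were longer than 10000 bases. Only 4 peaks had a gap under 50 bases, 2 in GOLGA6L4 (21 bases) and 1 each in NPIPB3 (1 base) and ASPN (3 bases). GOLGA6L4 and NPIPB3 belong to families of near-identical copies, and their peaks are uncertain between copies. Where the same junction was listed more than once, block sizes were equal in 42.2% of comparisons, and 96.7% of the unequal ones differed by a multiple of 30 bases within 2 bases. Lengths therefore move in steps of 30 bases in these lists.

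The number of blocks chose the peaks, so the values on either side of that line are given as description. Peaks with exactly 3 blocks had median folds of 4.28 and 3.42 in the sgNS lists, then 3.74 and 4.03 in the sgMETTL1 lists. The 2-block peaks had median folds of 4.53 and 3.84 under sgNS against 3.81 and 4.03 under sgMETTL1, and single-block peaks 4.52 and 4.31, then 4.51 and 4.44. The 2-block peaks closest to a single block, those whose shorter block had 1 to 5 bases, numbered 29, 27, 25 and 28 and had median folds of 2.98, 2.60, 4.19 and 3.13. The classes overlapped widely in fold.

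The 2-block peaks lay nearer to the middle of genes than single-block peaks did. In replicate 1 of sgNS the centre of 50.9% of 2-block peaks fell in the last 10% of the gene span (95% exact binomial interval 46.6 to 55.3), against 78.8% of single-block peaks (78.0 to 79.6). The other lists gave 50.1, 45.0 and 43.6% for 2-block peaks and 77.8 to 79.0% for single-block peaks. In each of the 4 lists the intervals of these 2 classes did not overlap; they cover counting error only. Peaks of 3 or more blocks reached 35.3 to 40.6%, whose intervals met those of the 2-block peaks in 2 sgMETTL1 lists and not in the sgNS lists. The share of exon junctions in that part of a gene was not computed, and a peak inside the last exon cannot span a junction.

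**Figure D1:**
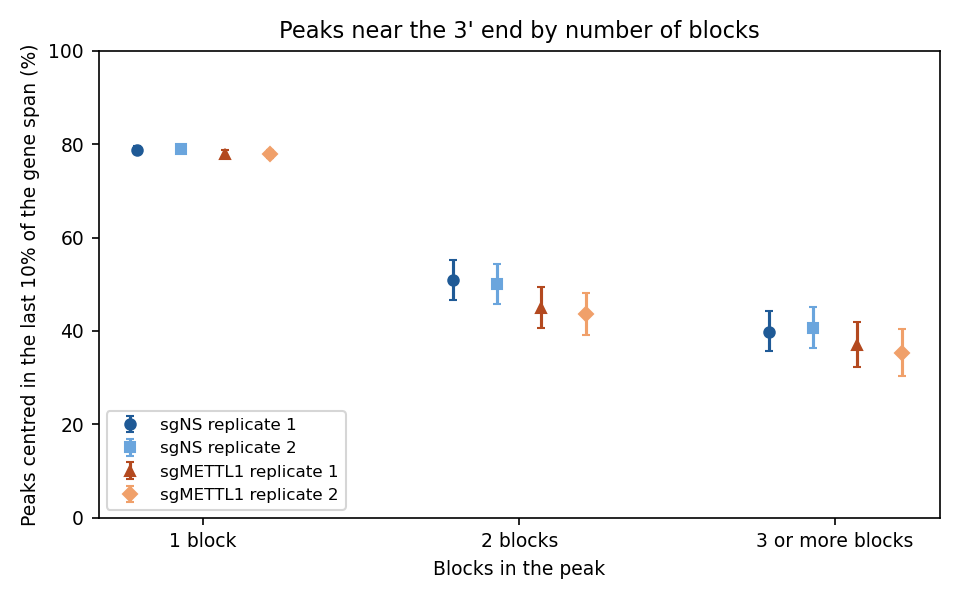
Share of peaks centred in the last 10% of the gene span (vertical axis, percent) by number of blocks (horizontal axis) for each list, with 95% exact binomial intervals as bars. In every list the 2-block peaks (43.6 to 50.9%) sit below the single-block peaks (77.8 to 79.0%).

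The 2-block peaks fell on 1237 distinct junctions. Of these, 767 were in 2-block peaks of 1 list, 232 of 2 lists, 105 of 3 lists and 133 of all 4. When peaks of any larger block number were also allowed to hold the junction, 293 were held in all 4 lists and 547 in 1 list. The 133 junctions of all 4 lists lay in 133 different genes, with a median gap of 1771 bases. The fold at these junctions differed between the highest and the lowest list by a median factor of 1.5, and between replicates of a guide by median factors of 1.17 (sgNS), and 1.18 (sgMETTL1). Requiring a shorter block of at least 25 bases left 87 of them.

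The junctions with the best mean rank of fold within the lists lay in genes of diverse function. Each gene's 4 folds are given in the order replicate 1 and replicate 2 of sgNS, then replicate 1 and replicate 2 of sgMETTL1, and positions are on GRCh38. ABI1, a regulator of actin assembly, came first: its junction at chr10:26748746-26751597 had folds of 85.2 and 68.2 (sgNS), and 52.9 and 62.9 (sgMETTL1). Both sgNS values lay above both sgMETTL1 values. Over the sites of all 4 lists, ranks of fold within the lists did so at 23.6%, and both sgMETTL1 ranks lay above at 20.2%. The 3′ block of ABI1 had 866 bases in 3 lists and 896 in replicate 2 of sgMETTL1, where the 5′ block was reduced to 1 base. SLIT2, a secreted guidance cue, had folds of 60.2 and 65.5, then 59.4 and 44.4, over blocks of 141 and 40 bases that were the same in all 4 lists. EIF2AK1, the kinase that lowers translation when heme is scarce, had folds of 64.5 and 51.4 in the sgNS lists, then 40.9 and 41.7 in the sgMETTL1 lists, without overlap. SDE2, a protein of genome maintenance, had 47.8 and 38.7, then 56.0 and 37.4, and the guides overlapped.

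LAPTM4B, a lysosomal membrane protein, had folds of 54.6 and 50.6 under sgNS against 34.9 and 34.7 under sgMETTL1. CASP8, an initiator caspase of apoptosis, had 49.1 and 35.9, then 52.6 and 33.7, so that the replicates differed more than the guides. UBE4A, a ubiquitin ligase, had 37.7 and 32.4, then 35.4 and 29.4. These values were close in all lists. RAC1, a small GTPase of cell shape, had 31.9 and 34.0, then 29.4 and 33.4. SLC33A1, a transporter of acetyl-CoA, had 31.0 and 25.8, then 23.3 and 33.9. CTNNB1, beta-catenin of Wnt signalling, had 29.9 and 30.5 (sgNS), and 24.9 and 26.2 (sgMETTL1) at chr3:41239355-41239659. Its 3′ block had 789 bases in every list.

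A pair of genes among the first 12 had their higher folds with sgMETTL1. ASCL2, a basic helix-loop-helix transcription factor of the Wnt pathway, had 23.1 and 46.5 in the sgNS lists, then 57.9 and 58.3 in the sgMETTL1 lists. Its negative log10 p was 4.31 and 9.67, then 10.4 and 10.9, the lowest of the 12 junctions in every list. Its 5′ block varied from 28 to 982 bases between lists, and the fold was lowest in the list with the shortest peak. SLC6A6, the taurine transporter, had 26.8 and 34.4, then 38.3 and 87.0, and the highest value came from replicate 2 of sgMETTL1 alone.

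**Figure D2:**
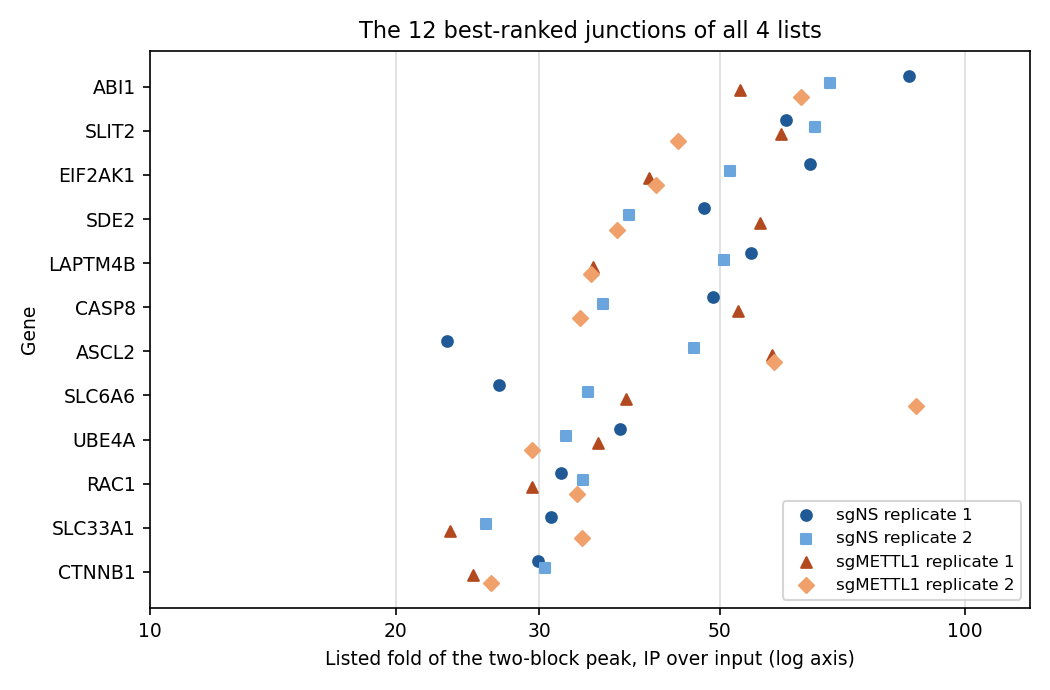
Listed fold of IP over input (horizontal, log axis) of the 2-block peak in each of the 4 lists for the 12 best-ranked junctions (vertical axis, gene names). Points are single lists; ABI1 runs from 52.9 to 85.2 and SLC6A6 from 26.8 to 87.0.

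ZNRF3, a ubiquitin ligase that removes Wnt receptors from the cell surface, was divided into peaks differently between the guides. Its 2-block peaks at the junction chr22:29050949-29053578 had folds of 200 and 146 under sgNS against 12.8 and 21.0 under sgMETTL1. In the sgNS lists the peak ran to the end of the region, position 29057488, with total block lengths of 4701 and 4192 bases. In the sgMETTL1 lists it stopped at 29056291 and 29056231, with total lengths of 2995 and 3085 bases. The remaining 3′ stretch stood there as a separate single-block peak of 1049 and 1109 bases, with folds of 104 and 96.4. In the sgNS lists this stretch has no value of its own, so the 2-block folds of the guides cover different bases.

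Gaps and block sizes at the 133 junctions spanned a wide range. The shortest gaps were in DIS3L, an exonuclease of the RNA exosome (93 bases), HNRNPC, an abundant nuclear RNA-binding protein (99 bases), and TLN1, talin (127 bases). The longest were in MAML2, a coactivator of Notch (247865 bases), TSC22D1 (140397 bases) and HIPK2, a nuclear kinase (60589 bases). MAML2 had a 5′ block of 1798 bases in every list and a 3′ block of 503, 1250, 772 and 1190 bases, with folds of 8.91 and 13.4, then 15.4 and 19.3. Both sgMETTL1 values lay above both sgNS values. HIPK2 had folds of 3.64 and 5.02, then 1.55 and 2.78. In 11 junctions both blocks had the same size in all 4 lists. Besides SLIT2 and HRH2 these included NCL, nucleolin, with folds of 3.96 and 3.84, then 4.10 and 3.96, and SYNCRIP, an hnRNP, with 3.12 and 2.46, then 2.10 and 1.80. The NCL values differed by less than those of SYNCRIP, whose sgNS values both exceeded the sgMETTL1 values. HRH2 had folds of 20.8 and 31.7 (sgNS), and 15.2 and 18.0 (sgMETTL1), also without overlap in fold. Its ranks within the lists did overlap: as the normal scores defined below they were 0.99 and 1.40, then 0.87 and 1.03. The share of all sites without overlap in fold was not computed.

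The median block lengths at shared junctions were smaller with sgMETTL1. At the 133 junctions the 5′ block had medians of 89 and 95 bases with sgNS and of 70 and 63 with sgMETTL1. Both sgNS lists had the longer 5′ block at 34 junctions and both sgMETTL1 lists at 2. For the 3′ block the medians were 380 and 408, then 358 and 366 bases, and these counts were 26 and 5. The 5′ block was equal in all 4 lists at 25 of the 133 junctions and the 3′ block at 32. The share of all peaks or junctions with such a separation of lengths was not computed. RHOA, a small GTPase, had a 5′ block of 97 bases in both sgNS lists and of 7 bases in both sgMETTL1 lists, beside a 3′ block of 1247 bases in all 4. PPP4R2, a subunit of protein phosphatase 4, had 234 bases with sgNS and 144 with sgMETTL1 in both replicates, while its folds were 24.7 and 23.0, then 27.7 and 28.8. RHOA and PPP4R2 were named after their values were seen.

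**Figure D3:**
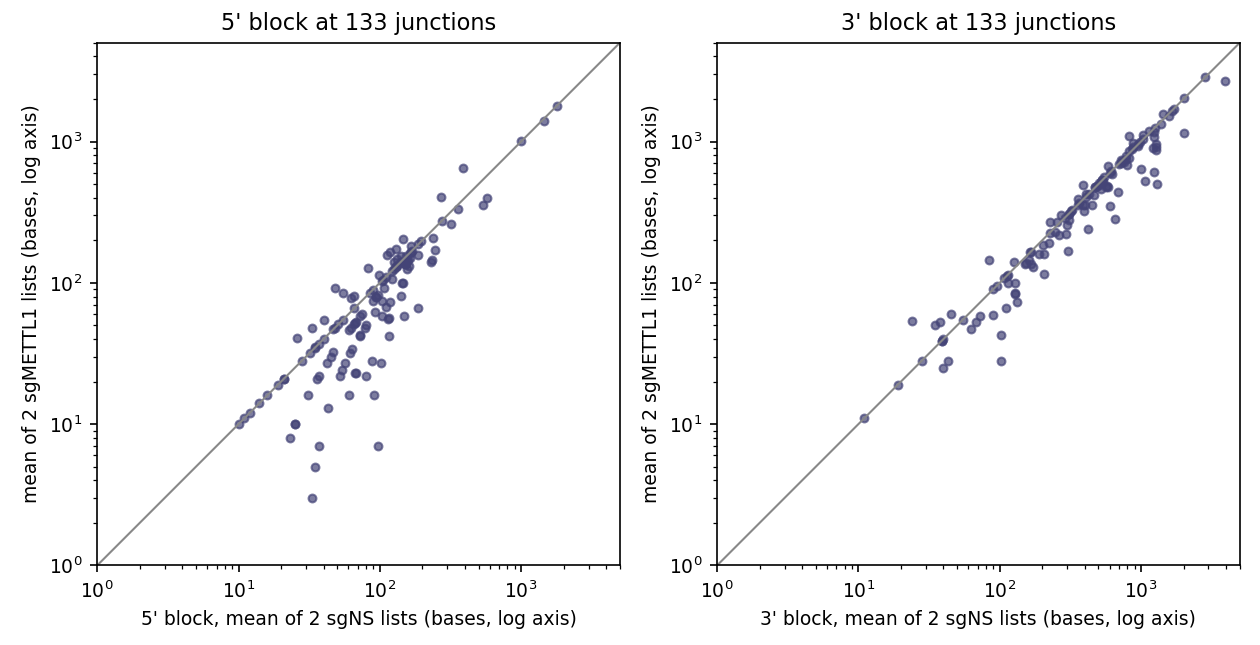
Length of the 5′ block (left) and 3′ block (right) at the 133 junctions listed as 2-block peaks in all 4 lists, in bases on log axes, as the mean of the 2 sgNS lists (horizontal) against the mean of the 2 sgMETTL1 lists (vertical). Each point is 1 junction and the line marks equal lengths; more 5′ blocks lie below the line than above it.

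Shorter peaks with sgMETTL1 were not limited to this class. The median length of 2-block peaks was 271 bases in each sgNS list and 208 and 210 bases with sgMETTL1. Single-block peaks had medians of 270 bases in each sgNS list and of 240 and 241 with sgMETTL1, and peaks of 3 or more blocks 479 and 450, then 404 and 421. The sgMETTL1 lists also held fewer peaks, and the median negative log10 p of 2-block peaks was 15.95 and 17.4 in the sgNS lists, then 7.93 and 8.18 in the sgMETTL1 lists. That of single-block peaks was 9.855 and 9.88, then 7.045 and 7.61. Peaks of 3 or more blocks had 53.85 and 58.8, then 26.6 and 29.2. With 2 lists a guide, an exact two-sided permutation test of any single value cannot go below p = 0.33, so no such test was made for these lengths. The part that depth or the number of peaks per list has in the lengths was not tested.

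A 2-block peak of one list often had another form in the next. Between the sgNS replicates, 54.1 and 52.8% of 2-block peaks had the same junction as a 2-block peak in the other list. Looked up in the sgMETTL1 lists, 37.7 to 39.5% did, 21.7 to 26.4% met a single-block peak, 5.2 to 6.9% met a peak of 3 or more blocks and 27.0 to 33.2% met none. Between the sgNS replicates 12.4 and 14.6% met a single block. The single block mostly overlapped the 3′ block of the 2-block peak: for replicate 1 of sgNS it did so for 116 of 131 and 104 of 116 peaks. In the opposite direction, 22.3 to 23.6% of sgMETTL1 2-block peaks met an sgNS peak of 3 or more blocks, and 6.0 to 8.5% met a single block. Between the sgMETTL1 replicates, 10.1 and 11.98% met a longer peak and 10.9 and 12.97% a single block. The junction of an sgMETTL1 2-block peak was held in an sgNS list for 62.7 to 64.9% of peaks, and that of an sgNS 2-block peak in an sgMETTL1 list for 44.0 to 46.5%. Within a guide it was held for 64.6 and 64.5% of peaks between the sgNS replicates and for 54.6 and 56.9% between the sgMETTL1 replicates.

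**Figure D4:**
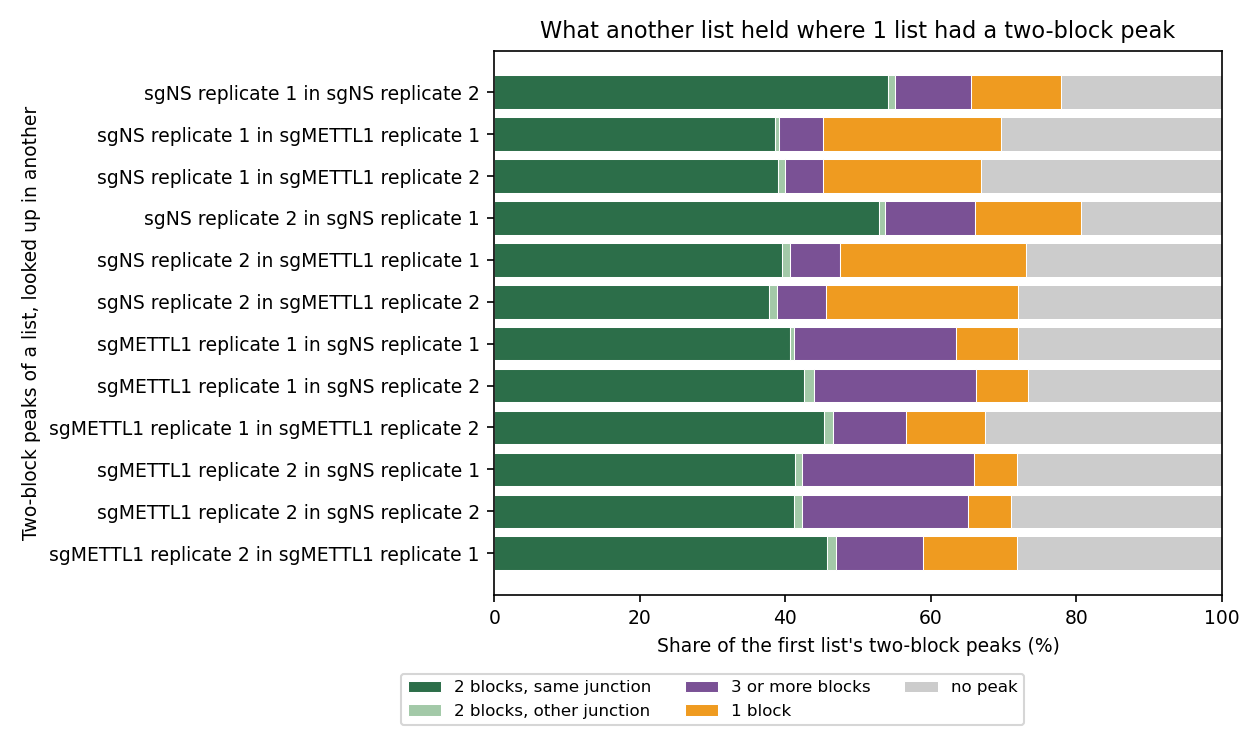
For each ordered pair of lists (vertical axis), the share of the first list's 2-block peaks (horizontal axis, percent) that met, in the second list, a 2-block peak with the same or another junction, a peak of 3 or more blocks, a single-block peak, or none. The single-block share is 21.7 to 26.4% for sgNS peaks looked up with sgMETTL1 and 6.0 to 8.5% the other way.

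The overlap with any peak, whatever its form, was asked next. Pooled over replicates, 79.3% of sgNS 2-block peaks met a peak of the other sgNS list on at least 1 base, and 70.4% met one of an sgMETTL1 list. List by list, sgNS single-block peaks did so at 78.1 and 83.2% within the guide and at 63.0 to 68.7% in the sgMETTL1 lists. A lower share with the other guide was thus not limited to 2-block peaks of sgNS. For sgMETTL1 2-block peaks the pooled shares were 69.7% within the guide and 72.1% in the sgNS lists, an order that turned with 50% reciprocal overlap (58.4 and 57.8%). Single-block peaks of sgMETTL1 met a peak at 73.0 and 77.6% within the guide and at 82.9 to 86.0% in the sgNS lists. Among peaks of 150 to 300 bases, 56.0 to 61.1% of sgNS 2-block peaks met an sgMETTL1 peak, and 51.9 to 59.1% of sgNS single-block peaks did. Of sgMETTL1 peaks in that length band, 70.5 to 73.1% of 2-block and 85.4 to 87.3% of single-block peaks met an sgNS peak. The sgMETTL1 2-block peaks were thus met less often than single-block peaks of like length. Their counting intervals did not overlap in these 4 pairs of lists. The sgMETTL1 peaks of more than 2 blocks in that band were met at 74.05 to 79.4%. Their intervals overlapped those of the 2-block peaks in each pair. A lower share than that of single-block peaks was thus not limited to 2-block peaks. Within sgMETTL1, 2-block peaks of that band were met at 63.7 and 71.0% and single-block peaks at 71.4 and 75.6%, with overlapping intervals.

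Junctions were then counted that both lists of a guide held as 2-block peaks and that no peak of 2 or more blocks held with the other guide. Over all 1683 junctions in both sgNS lists, of whatever block number, 20.4% were held in no sgMETTL1 list, and of 1274 in both sgMETTL1 lists 8.4% were held in no sgNS list. Of the 287 junctions that 2-block peaks held in both sgNS lists, 81 (28.2%, interval 23.1 to 33.8) were in none of the sgMETTL1 lists. Of the 228 held in both sgMETTL1 lists, 14 (6.14%, interval 3.40 to 10.1) were in none of the sgNS lists. With equal numbers of top-ranked peaks per list the counts were 75 of 272 (27.6%, against 20% of all junctions) and 14 of 226 (6.19%, against 9.01%). Since each count requires both lists of a guide and neither of the other, leaving out any 1 list loosens it. Without replicate 1 or 2 of sgNS the sgNS count was 243 and 244 (44.6 and 46.0%, against 30.4% of all junctions in each case) and the sgMETTL1 count 22 and 23 (9.65 and 10.1%, against 12.6 and 12.9%). Without replicate 1 or 2 of sgMETTL1 the sgNS count was 115 and 105 (40.1 and 36.6%, against 29.9 and 27.7%) and the sgMETTL1 count 150 and 154 (30.1 and 30.5%, against 20.0 and 20.4%). The sgMETTL1 share thus lay above that over all junctions when 1 sgMETTL1 list was left out, and the order of the 2 counts turned.

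Most sites with a 2-block peak in both lists of a guide also had a peak of some form with the other guide. Peaks of different lists that shared exon bases were joined into 14392 sites, of which 5895 had a peak in all 4 lists. Over all sites, 12.8% of the 8369 present in both sgNS lists had no sgMETTL1 peak, and 2.73% of the 6362 present in both sgMETTL1 lists had no sgNS peak. Of 294 sites with a 2-block peak in both sgNS lists, 19 (6.46%, interval 3.94 to 9.91) had no sgMETTL1 peak. Of 237 with one in both sgMETTL1 lists, 11 (4.64%, interval 2.34 to 8.15) had no sgNS peak. The sgNS share lay below that over all sites, and the interval of the sgMETTL1 share held the value over all sites. With 50% reciprocal overlap the counts were 31 (11.6%, against 18.0% of all sites) and 18 (8.41%, against 9.53%). With folds of at least 2 times the smallest of the list they were 12 (5.29%, against 11.1%) and 6 (3.41%, against 3.11%). Among sites whose longest peak had at most 300 bases they were 17 of 82 (20.7%, against 30.9%) and 10 of 70 (14.3%, against 10.7%). There the intervals of both shares (12.6 to 31.1 and 7.07 to 24.7) held the value over all sites of that length. These relations to all sites did not all hold when a list was left out. A guide with 1 list left needs a peak in that list alone, so its count is less strict than that of the other guide. Without replicate 1 or 2 of sgMETTL1, 118 and 113 sgMETTL1 sites (24.0 and 22.9%) had no sgNS peak, against 11.9 and 13.5% of all sites, and 37 and 30 sgNS sites (12.6 and 10.2%) had no sgMETTL1 peak, against 22.7 and 19.7%, so that the order of the 2 counts turned. Without replicate 1 or 2 of sgNS there were 108 and 119 sgNS sites (19.9 and 22.6%), whose intervals (16.6 to 23.5 and 19.1 to 26.4) held the 22.8 and 25.9% of all sites, and 16 and 14 sgMETTL1 sites (6.75 and 5.91%, against 5.19 and 4.89%).

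The sgNS-only sites had moderate folds. BCL2, an inhibitor of apoptosis, led them, with folds of 9.26 and 11.6 over a gap of 221 bases. CHRNA3, a nicotinic receptor subunit, had 3.97 and 19.0, so the replicates differed widely. TTLL1, a tubulin polyglutamylase, had 4.11 and 6.34 on different junctions (gaps of 4285 and 7496 bases). FAM193B had 4.84 and 2.78, ATAD5, which unloads PCNA from DNA, had 4.24 and 2.86, and TCFL5, a transcription factor, had 3.68 and 2.22. Apart from TTLL1, each of these 6 sites had the same gap in both replicates.

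The sgMETTL1-only sites were led by DLEC1, with 33.5 and 27.8 on different junctions. Its peak in replicate 2 ended at position 38122138, the base at which its peak in replicate 1 began. These peaks thus met at that base alone, and their negative log10 p was 5.73 in replicate 1 and 4.86 in replicate 2. BICD1, a dynein adaptor, had 2-block peaks with folds of 9.14 and 33.3, also on different junctions, beside a single-block peak of 24.4 in replicate 1. Its 2-block peaks likewise met at position 32367726 alone, with negative log10 p of 4.01 and 5.95. The single-block peak also overlapped the 2-block peak of replicate 2. MAST3, a kinase, had 5.54 and 3.52 over the same gap of 1566 bases. UVSSA, a factor of transcription-coupled repair, had 2.24 and 2.41 over 1194 bases, SREK1, a splicing regulator, had 2.11 and 1.88 over 1060 bases, and GIT2, a GTPase-activating protein, had 1.76 and 2.12 over 5587 bases. The last 3 had the same gap in both replicates and folds near the low end of their lists.

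Where a site changed its form between guides, 2-block peaks of sgNS mostly faced single blocks and those of sgMETTL1 mostly faced longer peaks. Among the sites of all 4 lists, 246 held a 2-block peak in both sgNS lists, 218 in both sgMETTL1 lists and 134 in all 4. At 61 sites a 2-block peak was present in both sgNS lists and in neither sgMETTL1 list. The strongest sgMETTL1 peak was a single block in both lists at 51 of these, and it had more than 2 blocks in at least 1 list at 10. In the reverse case there were 48 sites, of which 42 had a longer strongest peak in at least 1 sgNS list and 6 a single block in both. With 50% reciprocal overlap the counts were 44 and 29. The block number chose these sites, so the counts are a description.

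SALL1, a zinc-finger transcription factor of development, had an identical 2-block peak in both sgNS lists, of 310 and 1574 bases around a gap of 1135 bases, with folds of 73.9 and 56.0. In each sgMETTL1 list the same stretch held 3 single-block peaks. That at the 3′ end had 539 bases and folds of 50.4 and 34.0, the middle one had 898 bases and folds of 9.90 and 20.5, and that in the 5′ exon had 151 and 121 bases and folds of 2.21 and 1.72. The junction itself was thus not covered by a listed peak with sgMETTL1. LRRC8B, a subunit of the volume-regulated anion channel, had a 2-block peak of 2430 bases with a fold of 38.1 in replicate 1 of sgNS. In replicate 2 it had a 2-block peak of 391 bases and fold 4.09 beside a single block of fold 34.0. With sgMETTL1 it had single blocks of 1381 bases with folds of 36.6 and 29.5 and weaker ones upstream. ZNF703, a transcriptional corepressor, had a 2-block peak of 598 bases with fold 3.17 beside a single block of fold 34.3 in replicate 1 of sgNS, and a 2-block peak of 3020 bases with fold 40.0 in replicate 2. With sgMETTL1 its strongest peaks were single blocks with folds of 29.7 and 29.8, so replicate 1 of sgNS already had its strong part in a single block. TET1, which oxidises 5-methylcytosine, moved the other way. It had 2-block peaks with folds of 58.3 and 31.6 next to 4-block peaks with sgNS, and a single 5-block peak of 2576 bases with folds of 33.8 and 27.6 with sgMETTL1.

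At 4 named sites with 2 blocks only under sgMETTL1, the strongest sgNS peak had more blocks. HNRNPL, a splicing regulator, had a 3-block peak of 508 bases in both sgNS lists, with folds of 60 and 51. With sgMETTL1 the 5′-most block of 19 bases was missing, and 2-block peaks of 449 and 478 bases remained, with folds of 52.7 and 38.5 and a 3′ block of 393 bases as before. DOCK1, an activator of Rac, had 4 and 5 blocks with folds of 40.7 and 27.6 with sgNS and 2 blocks with folds of 54.9 and 34.4 with sgMETTL1, with a last block of 1186 bases in all 4 lists. SPRED2, an inhibitor of the Ras-ERK pathway, had the same 6-block peak of 4442 bases in both sgNS lists, with folds of 62.9 and 60.2. With sgMETTL1 it was divided into a 3-block peak with folds of 57.6 and 43.1 and a 2-block peak of folds 1.54 and 1.41 over a gap of 87065 bases. KIAA1549 had 7 and 5 blocks with folds of 42.4 and 41.4 with sgNS, and with sgMETTL1 2-block peaks with folds of 28.7 and 2.47 in replicate 1 and 2.69 in replicate 2, where the strong part was a single block of fold 30.8.

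The strength of sites that had 2 blocks throughout was compared next. Because no scaling between the lists is stated, the strongest fold of a site was turned into its rank within the list over the 5895 sites of all 4 lists, and the rank into a normal score, so that 0 is the middle of a list. In 121 sites this strongest peak was a 2-block peak on every list. Their median scores were 0.03 and 0.01 under sgNS against 0.10 and 0.02 under sgMETTL1. limma on these scores, sgMETTL1 against sgNS, called 0 of the 5895 sites at an adjusted p of 0.05 (0% called) and so 0 of the 121. At an unadjusted p under 0.05 there were 6 of the 121 (3 lower and 3 higher with sgMETTL1), against 10.3% of all sites (4.92% lower and 5.41% higher). The scores did not overlap between the guides with sgNS higher for 27 of the 121 (22.3%), against 23.6% of all sites, and with sgMETTL1 higher for 31 (25.6%), against 20.2%. The median difference was 0.00 for the 121 and -0.02 for all sites. With log2 of the listed fold in place of ranks, all sites shifted by a median of -0.22 and the 121 by -0.20, and 10 of the 121 (8.26%) were lower and 0 higher at an unadjusted p under 0.05, against 617 lower and 146 higher of all 5895 sites (12.9% together), with 0 called. That shift is shared with the other sites.

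None of the named differences passed the test. KMT5B, a histone H4 lysine methyltransferase, had folds of 4.22 and 4.19, then 2.67 and 2.28 (score difference -0.56, with an adjusted p of 0.436 in limma and of 0.362 to 0.748 over the alternatives). HNRNPC had 1.83 and 2.06, then 1.53 and 1.39 (-0.65). APIP, an enzyme of methionine salvage, had 48.6 in each sgNS list and 30.5 and 14.3 with sgMETTL1 (-0.60). GPSM2, a spindle orientation protein, had 5.59 and 4.33, then 2.56 and 3.19 (-0.53). In each of these 4 both sgNS values exceeded both sgMETTL1 values. The sites were chosen for the smallest limma p in each direction, a choice that favours values without overlap.

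In the other direction, CDKN2A, the locus of a CDK inhibitor, had the largest difference of the 5 sites, 0.88 (SE 0.35), with folds of 8.33 and 4.11 in the sgNS lists, then 8.71 and 19.4 in the sgMETTL1 lists. Its adjusted p was 0.484 in limma and 0.435 to 0.806 over the alternatives. CAPRIN2, an RNA-binding protein, had folds of 1.86 and 1.93, then 2.13 and 2.81 (score difference 0.70). CPLX2, a complexin of vesicle release, had 1.72 and 1.61, then 2.04 and 1.90 (0.65). SMARCE1, a subunit of the BAF chromatin remodeller, had 2.35 and 2.19, then 2.75 in each sgMETTL1 list (0.52). THBS4, a thrombospondin, had 9.26 and 8.45, then 11.2 and 17.6 (0.51). Here too the guides did not overlap, which the choice by smallest p favours. The shares of all sites without overlap in score are given above.

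**Figure D5:**
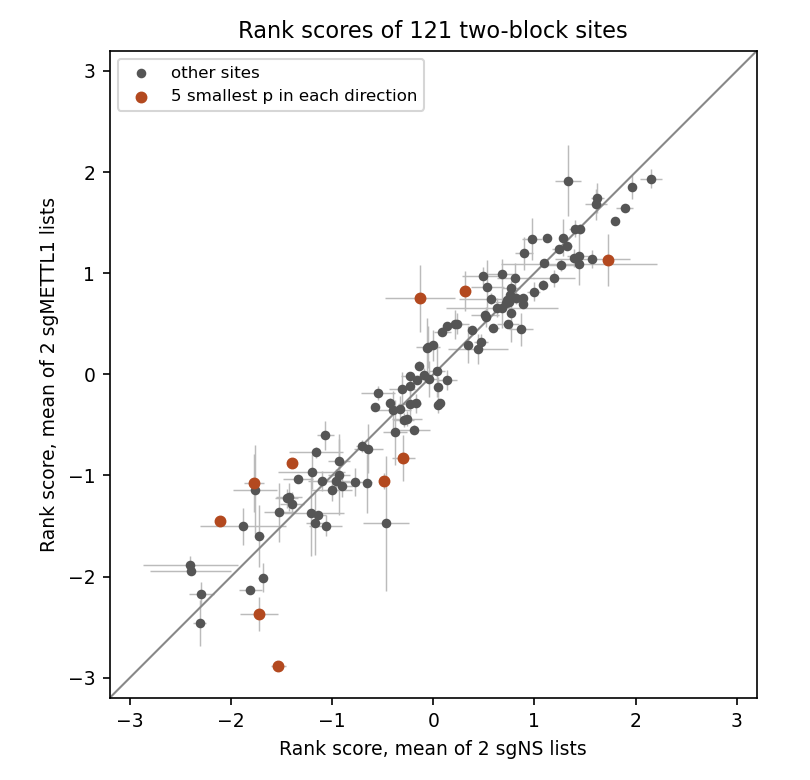
Rank score of the 121 sites with 2 blocks in all lists, as the mean of the 2 sgNS lists (horizontal) against the mean of the 2 sgMETTL1 lists (vertical). Bars run from one replicate to the other, the line marks equal scores, and the 5 sites with the smallest limma p in each direction are in red, none of which passed the adjusted threshold.

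Gene groups were described by the number of genes with a 2-block peak in some list among those with any peak. The lists were chosen with earlier results of these data known, and no test is attached to them. Over all genes with a peak this share was 15.8%. Among known QKI targets, 4 of the 11 with a peak had one: CTNNB1, FOXO1, SIRT2 and MBP. FOXO1, a transcription factor of insulin signalling, had folds of 38.1 and 40.3 with sgNS and 27.9 in replicate 2 of sgMETTL1, while replicate 1 had a single block there. SIRT2, a deacetylase, had 23.3 and 27.1, then 14 in replicate 1, and replicate 2 of sgMETTL1 had 3 or more blocks. QKI itself had 4 and 6 peaks with sgNS and 6 and 4 with sgMETTL1, none of them in 2 blocks. The deposited values do not separate RNA of the transgene from that of the cells' own gene.

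Chromatin regulators had a 2-block peak in 9 of the 30 genes with a peak. ARID2, part of a SWI/SNF remodeller, had one at the same junction in all 4 lists, with folds of 2.40 and 2.03, then 2.20 and 2.28. Splicing and RNA-binding proteins had one in 6 of 20 genes. MBNL1, a splicing regulator, had folds of 3.13 and 2.19, then 3.10 and 2.76 at one junction in all 4 lists, with a 5′ block of 52 bases under sgNS and 22 under sgMETTL1. HNRNPA2B1 had 29.8 in replicate 2 of sgNS and 28.1 in replicate 2 of sgMETTL1, and longer peaks in both replicates 1.

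Stress granule components had a 2-block peak in 6 of 18 genes. YTHDF3, a reader of N6-methyladenosine, had folds of 9.56 and 8.72, then 9.19 and 5.82. YTHDF1, another such reader, had 6.84 and 5.95, then 8.95 and 6.0, and its 3′ block of 1305 bases in both sgNS lists was 559 and 440 bases with sgMETTL1. PUM2, a translational repressor, had 8.35 and 4.18 with sgNS and single blocks with sgMETTL1. Ubiquitin ligases had one in 4 of 24 genes: UBE4A and ZNRF3 in all lists, and ITCH and TRIP12 in some. The cytoskeletal and scaffold genes had one in 7 of 16, among them TLN1 with folds of 17.6 and 12.2, then 9.42 and 8.90.

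Translation factors had a 2-block peak in 3 of 16 genes, with EIF4G2 at 1.43 and 1.58 in the sgNS lists and a single block in each sgMETTL1 list. G2/M genes had one in 3 of 16, with KIF23, a motor of cytokinesis, at 4.12 and 5.24 in the sgNS lists. With sgMETTL1, KIF23 had a single block there in replicate 1 and no peak there in replicate 2. Genes of the stress response had one in 3 of 15. SESN3, a sestrin, had folds of 323 in replicate 2 of sgNS and 112 in replicate 2 of sgMETTL1, and peaks of 3 or more blocks there in both replicates 1. EIF2AK2, the kinase that senses double-stranded RNA, had 2.56 and 2.52 with sgNS and single blocks with sgMETTL1. The Hippo pathway had one in 1 of 17 genes, WWC2, with 1.74 in replicate 2 of sgNS and 2.20 in replicate 1 of sgMETTL1. Hepatocyte secreted proteins had none in 6 genes with a peak and cytosolic ribosomal proteins none in 3. Of the fibroblast and blood cell markers, HBB, a globin, had one in replicate 1 of sgNS alone, with a fold of 30.1. Over all lists together, 21 of the listed genes had a 2-block peak in both sgNS lists and 14 in both sgMETTL1 lists, or 36 and 32 when a single list of the guide was enough. Over all genes, 304 of the 4972 with a peak in both sgNS lists (6.11%) had a 2-block peak in both, and 254 of the 4401 with a peak in both sgMETTL1 lists (5.77%).

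In each list, 466 to 512 genes had a 2-block peak, and in 42.0 to 43.8% of them the gene had no peak of another form. The strongest peak of the gene was the 2-block one in 55.9 to 60.1% of them. Most genes had a single 2-block junction. Of the 1033 genes, 883 had 1 junction, 109 had 2, 26 had 3, 10 had 4, 4 had 5 and 1 had 6. TRIOBP, an actin-binding protein, had the most, with 6 junctions in 7 peaks and folds from 1.71 to 19.0. CELSR2, an adhesion receptor, PREX1, an activator of Rac, and SYNE3, a nuclear envelope protein, had 5 junctions each. CELSR2 had a fold of 58.7 in replicate 1 of sgMETTL1 and of 2.78 to 6.11 elsewhere, at different junctions. In PREX1 the 5 peaks were all in replicate 2 of sgNS (16.9 to 19.0) and replicate 1 of sgMETTL1 (21.3 to 24.4). Of all 1237 junctions, 9 had a gap that holds an annotated small RNA gene, 5 of them microRNAs and 4 small nucleolar RNAs, and none of the 9 was in all 4 lists.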

How the data were processed

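RNA immunoprecipitation sequencing of 8 samples gave 4 deposited peak lists. Per the submitters' processing notes, STAR and GRCh38 were used; which program called the peaks, and how, is not given in the sources used here. Each fold is a ratio of IP over input, as deposited by the authors. Each row also has a p-value, deposited by the authors. The authors' deposited logarithms of p were treated as a score. Samples were grouped by title. Peaks were joined on at least 1 shared exon base on the same strand, with exact Clopper-Pearson intervals at 95% (Python 3.11.15, pandas 2.3.3, numpy 2.4.6, scipy 1.17.1, matplotlib 3.10.9). Rank scores were compared in R 4.3.3 by limma 3.58.1, two-sided, with Benjamini-Hochberg adjustment at an FDR of 0.05. The overlap count and the fit were tested on simulated data. Tests across reads and motif searches within peaks were not run here, since no read counts or genome were used. Gene spans came from RefSeq on GRCh38.p14, which placed 99.4% of 2-block peaks, and 26 peaks shared their position with a row of another gene name. RefSeq transcript starts matched 814 of the 1033 genes. Coordinates are 1-based.

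The members and the gene lists were chosen with earlier results of these data known. The genes named were the 12 best-ranked junctions of all 4 lists, the 6 best sites of each guide alone, the 4 best sites with 2 blocks under 1 guide for each guide, the 5 sites with the smallest limma p in each direction, the 3 longest and 3 shortest gaps, up to 3 members per gene list, and the 5 genes with most junctions. Other names were chosen after their values were seen. Alternatives were 50% reciprocal overlap, equal numbers of top-ranked peaks, stricter folds, block and length limits, log2 folds, site means, the replicate block and leaving out each list; the length limits and the counts of junctions held were added after seeing the data. Some genes that fall under these rules are not reported here.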

Additional observations from a re-analysis of the deposited data

How the results depend on the processing

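The order of the guides turned in some settings given here. The number of 2-block peaks per list stayed within 1.5 times under each alternative run for it. The share of sgNS 2-block peaks met by the other sgNS list was 68.7% with 50% reciprocal overlap, 84.0% with equal numbers of top-ranked peaks, 82.2% with a shorter block of at least 25 bases and 76.9% for peaks of 150 to 300 bases. For sgNS peaks met by an sgMETTL1 list these were 57.6, 77.6, 73.5 and 58.5%. For sgMETTL1 peaks met by an sgNS list the first 3 were 57.8, 70.3 and 76.6%, and within sgMETTL1 reciprocal overlap gave 58.4% and the block limit 74.2%. Sites of sgNS alone numbered 31 with reciprocal overlap and 12 with the stricter fold, and those of sgMETTL1 alone 18 and 6. Leaving out 1 list gave 30 to 119 and 14 to 118 such sites, and 105 to 244 and 22 to 154 junctions held with 1 guide alone, because it loosens the requirement; with either sgMETTL1 list left out, the sgMETTL1 counts exceeded the sgNS counts. The block limit left 87 junctions of all 4 lists. Reciprocal overlap left 29 sites with 2 blocks under sgMETTL1 and another number under sgNS. Listed genes numbered 36 and 32 when 1 list of the guide was enough. Unadjusted p under 0.05 was reached by 10 of the 121 sites with log2 folds and by 3 to 9 without 1 list. limma called 0 sites under every alternative that kept all 4 lists, the replicate block included. The replicate block gave 5 of 121 (4.13%) at an unadjusted p under 0.05 in limma, against 10.2% of all sites. Its smallest adjusted p in limma was 0.47. The replicates share only a number: with 2 pairs, deviations of same-numbered lists correlated at 0.01 over all sites and 0.03 over the 121. The causes of these moves were not tested, and the motif alternatives were not run because no genome was used. The lists do not give depth, so its limits are not known here.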
